A study of Mus musculus with 6 samples.

Results

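The epidermal growth factor (EGF) family ligands and the ErbB receptors that bind them were followed in salivary glands of mouse embryos, on 3 arrays of untreated glands (controls 1 to 3) and 3 arrays of glands treated with TGF-β1, a cytokine whose receptors activate Smad proteins. Per the labels, glands were taken at a stage written as T13 and kept in culture for 72 hours with or without TGF-β1, and 6 µg of total RNA went into each labelling; which salivary gland was taken, from which strain, and how much TGF-β1 was added are not stated in the labels. The 10 genes Egf, Tgfa, Hbegf, Areg, Ereg, Btc, Nrg1, Egfr, Erbb2 and Erbb3 were looked up by gene symbol in the platform annotation, and 9 of them had a probe set, 1 each, among the 19505 genes compared. Areg (amphiregulin) was matched to no probe set and was not analysed here. Whether the replicates were separate cultures or animals is not stated either, so the p-values here measure only the spread between arrays, which may be technical.

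EGF family ligands are made as membrane proteins and released from the cell surface by metalloproteases of the ADAM family. They bind to receptor tyrosine kinases of the ErbB family, which pair with each other and pass the signal to the Ras and MAP kinase cascade and to phosphoinositide 3-kinase. Erbb2 has no known ligand of its own and serves as a partner of the other receptors, and Erbb3, which binds neuregulins, has little kinase activity and acts through its partners. In the fetal salivary gland this family is known for acting on epithelial growth and branching, and the rodent submandibular gland is a classical source of EGF in adult animals.

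Control 3 stood apart from the other arrays. Its Pearson correlation with them over all genes lay between 0.550 and 0.601, while the other 5 arrays correlated with each other at 0.948 to 0.990, with TGF-β1 3 the lowest of these. The log2 value of Actb, the gene of β-actin, was 8.91 there against 12.70 or more elsewhere, and the interquartile range of all probe sets in control 3 was 2.05, against 3.17 to 3.26 in the others. The glands carried their defining epithelial markers: the median of 16 gland epithelium genes was 9.77, 9.24 and 7.44 in controls 1 to 3 and between 9.83 and 10.33 with TGF-β1. Differences are therefore given for all 6 arrays unweighted, for all 6 with a weight per array estimated from the data (0.0338 for control 3, 0.398 for TGF-β1 3 and at least 1.65 for each other array), and from controls 1 and 2 and TGF-β1 1 and 2 alone, called the 4-array fit.

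None of the 9 ligand and receptor genes passed in any fit that was run. Unweighted, limma passed 0 of the 9 genes at a Benjamini-Hochberg adjusted p under 0.05, as it passed 0 of all 19505 genes (0%; 389 at an unadjusted p under 0.05). In the array-weighted fit 0 of 9 passed, where 6.88% of all genes did, and in the 4-array fit it was again 0 of 9, where 2.59% of all genes did. At those shares, 0 of 9 is near the background. Over 13 alternative settings the lowest adjusted p of these 9 genes was 0.185, for Erbb2 in the 4-array fit.

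**Figure D1:**
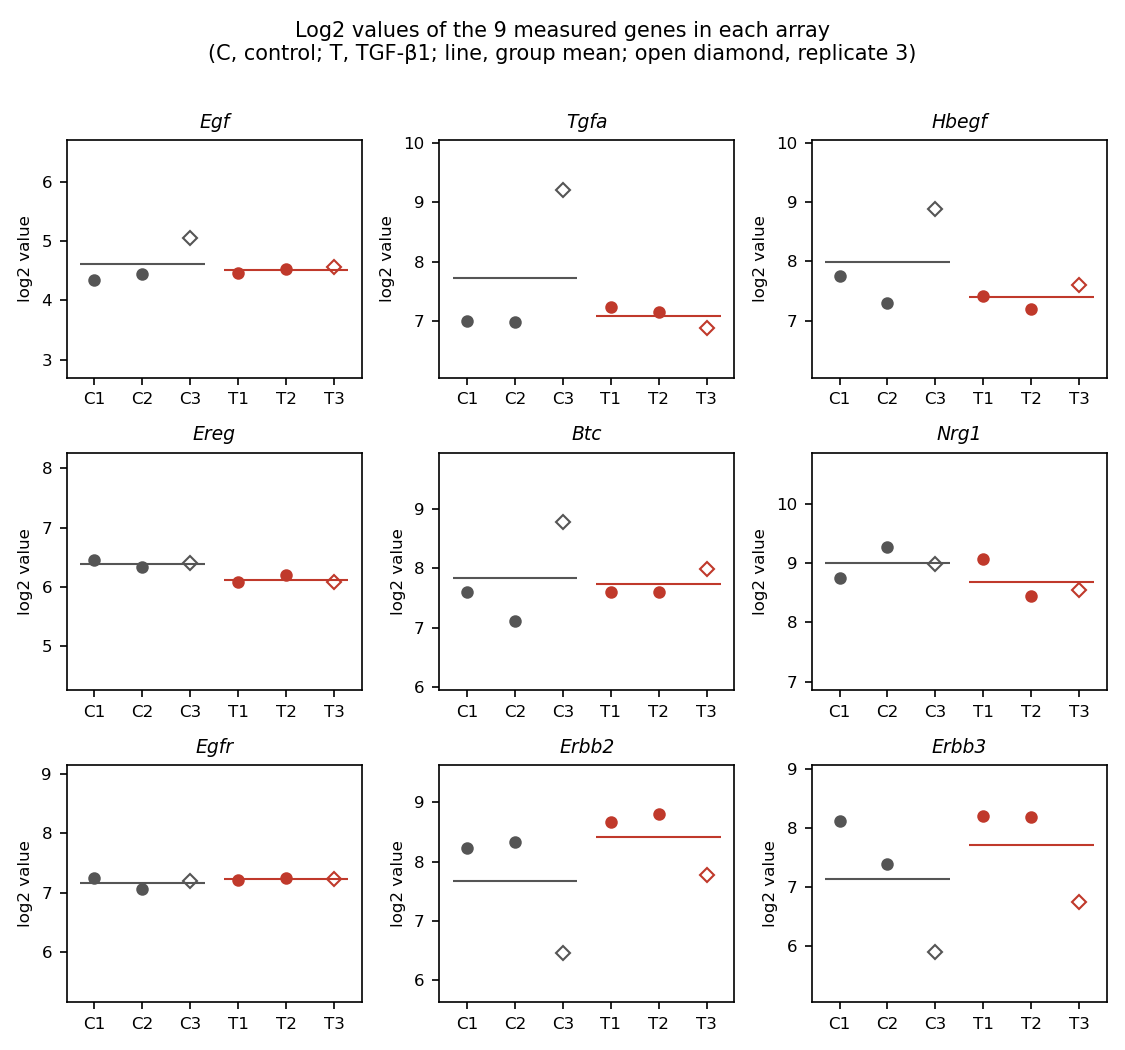
Deposited log2 values (vertical axis) of the 9 measured genes in each array (horizontal axis; C, control, grey; T, TGF-β1, red), with the group mean as a line and replicate 3 as an open diamond. Control 3 lies above the other 5 arrays for Egf, Tgfa, Hbegf and Btc, as it does for 51.9% of all genes. It lies below them for Erbb2 and Erbb3, as it does for 32.4% of all genes. Only Ereg has groups that do not overlap, beside 11.6% of all genes.

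Egf, the founding ligand of the family, was at 4.35, 4.44 and 5.05 in controls 1 to 3 and at 4.46, 4.53 and 4.57 in TGF-β1 1 to 3 (log2 values). All 6 values lay below the lower quartile of their own array (5.11 to 5.79). The deposited values carry no measure of background, so whether an Egf transcript was measured at all was not tested. The difference, TGF-β1 minus control, was -0.10 ± 0.33 (SE, n = 3 per group; 95% interval -0.87 to 0.68) and 0.07 ± 0.13 with array weights. Its sign turned with quantile normalization of the arrays (0.15).

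Tgfa, transforming growth factor α, another ligand of Egfr, was at 7.003, 6.98 and 9.21 in the controls and at 7.24, 7.15 and 6.88 in the TGF-β1 arrays. The high value of control 3 set the unweighted difference of -0.64 ± 0.63 (95% interval -2.12 to 0.83). Without control 3 the 5 remaining values lay within 0.35 of each other, and the difference was 0.10 ± 0.18 (adjusted p = 0.951 in limma's fit). In the 4-array fit, where the controls lay below both treated arrays, it was 0.20 ± 0.14 (95% interval -0.13 to 0.54; adjusted p = 0.554).

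Hbegf, the heparin-binding ligand, was at 7.76, 7.30 and 8.89 in the controls and at 7.41, 7.19 and 7.60 in the TGF-β1 arrays. Its unweighted difference of -0.58 ± 0.46 had the smallest p of the ligands (adjusted p = 0.776 in limma's fit) and shrank to -0.08 ± 0.17 with array weights. The 3 treated arrays lay within the range of the controls apart from TGF-β1 2, which lay below it. Btc, betacellulin, was at 7.60, 7.12 and 8.78 in the controls and at 7.61, 7.61 and 7.99 in the TGF-β1 arrays. The treated arrays lay between the lowest and the highest control. Its difference was -0.10 ± 0.47 unweighted and 0.38 ± 0.17 with array weights (adjusted p = 0.229).

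Ereg, epiregulin, was the 1 gene of the 9 whose groups did not overlap, which held for 11.6% of all genes. It was at 6.45, 6.33 and 6.40 in the controls and at 6.08, 6.20 and 6.08 in the TGF-β1 arrays, with control 3 between the other controls. The lowest control and the highest treated array were 6.33 and 6.20. The difference was -0.28 ± 0.28 (95% interval -0.95 to 0.40; adjusted p = 0.776 in limma's fit) and lay between -0.32 and -0.25 when each array was left out in turn. The standard error of the unweighted fit is larger than the group SDs of 0.06 and 0.07 would give alone, since limma moves each gene's variance towards that of all genes.

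Nrg1, neuregulin 1, a ligand of Erbb3 and Erbb4 with known roles in nerve and epithelium, was at 8.75, 9.27 and 8.98 in the controls and at 9.07, 8.44 and 8.54 in the TGF-β1 arrays. TGF-β1 1 lay among the controls and the other treated arrays below them. The difference was -0.32 ± 0.34, and -0.30 ± 0.21 with array weights (adjusted p = 0.470). Control 3 lay between the other controls for this gene, and the difference was negative in all 13 alternative settings. Of the 6 ligands, 0 had a positive unweighted difference, beside 40.5% of all genes. With array weights 3 had a positive one, beside 50.9% of all genes. The ligand median was -0.30 unweighted and -0.01 weighted, beside -0.14 and 0.01 over all genes.

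Egfr, the receptor of EGF, TGF-α and several other ligands, varied least of the 9 genes. It was at 7.25, 7.06 and 7.20 in the controls and at 7.22, 7.24 and 7.24 in the TGF-β1 arrays. All 3 treated values lay within the range of the controls. The difference was 0.07 ± 0.29, and 0.08 ± 0.15 in the 4-array fit, where the 95% interval ran from -0.27 to 0.43. A change of 1 log2 unit in either direction lies outside that interval.

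Erbb2 was at 8.24, 8.34 and 6.46 in the controls and at 8.66, 8.80 and 7.78 in the TGF-β1 arrays. TGF-β1 1 and 2 were above all controls, while TGF-β1 3 was below controls 1 and 2. The difference was 0.73 ± 0.59 with all arrays (adjusted p = 0.776 in limma's fit), 0.36 ± 0.17 with array weights (adjusted p = 0.280) and 0.44 ± 0.15 in the 4-array fit (95% interval 0.10 to 0.79; adjusted p = 0.185). Without control 3 alone, so with TGF-β1 3 kept, it was 0.13 ± 0.32.

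Erbb3, like Erbb2, had TGF-β1 3 as its lowest treated array. It was at 8.11, 7.39 and 5.91 in the controls and at 8.21, 8.18 and 6.76 in the TGF-β1 arrays. TGF-β1 1 and 2 lay just above control 1 and TGF-β1 3 below controls 1 and 2. The difference was 0.58 ± 0.67 with all arrays, 0.54 ± 0.24 with array weights (adjusted p = 0.226) and -0.04 ± 0.50 without control 3. All 3 receptors had a positive difference in the unweighted and the array-weighted fit, as 40.5% and 50.9% of all genes did. Their medians were 0.58 and 0.36, beside -0.14 and 0.01 over all genes, and none of them passed. Without control 3, 2 of the 3 were positive, with a median of 0.08 beside 0.01 over all genes.

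**Figure D2:**
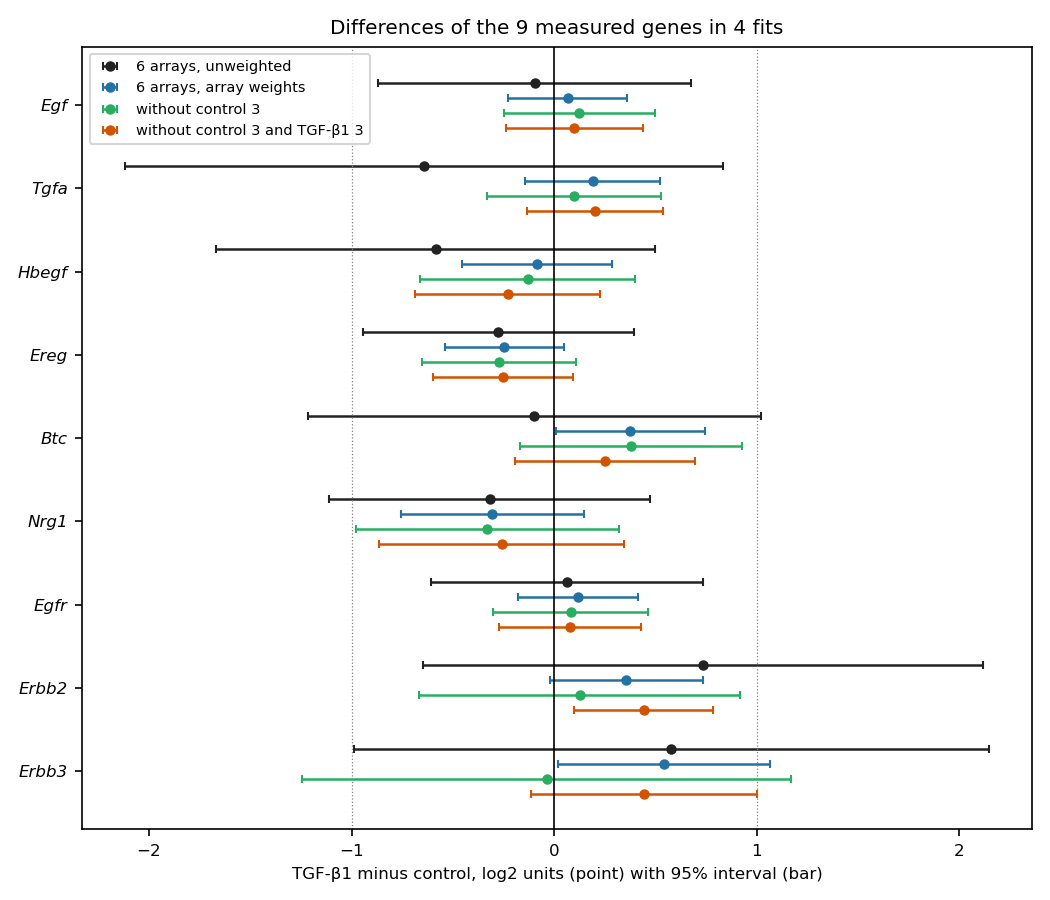
Difference between TGF-β1 and control arrays in log2 units (horizontal axis; points, with 95% intervals as bars) for each of the 9 genes (vertical axis) in 4 limma fits; dotted lines mark a difference of 1 unit either way. The unweighted intervals are the widest of the 4 for every gene, and with array weights all intervals but that of Erbb3 lie within 1 unit of 0.

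How large a change these arrays could have missed differs between the fits. With all 6 arrays unweighted, the 95% interval lay within 1 log2 unit of 0 for 3 of the 9 genes (Egf, Ereg and Egfr), beside 16% of all genes. With array weights, and likewise in the 4-array fit, it did so for 8 of the 9, all but Erbb3, beside 90.4% and 89.5% of all genes. Array weights are treated as known in the fit, so the weighted intervals are narrower than they should be. The 4-array fit left out control 3 and TGF-β1 3 because their values stood apart. Its intervals do not count the spread of those arrays and may be too narrow as well.

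The arrays hold whole glands, and in such bulk samples fewer cells of a type and less RNA per cell cannot be told apart. Of 16 gland epithelium genes, 7 rose in the array-weighted fit and 0 fell (43.8%, beside 6.88% of all genes). In the 4-array fit 4 of the 7 also passed (25%, beside 2.59% of all genes). Of the 9 that did not pass, 5 had a negative weighted difference, Trp63 and the keratins Krt5, Krt7, Krt14 and Krt19. The summed level of those 16 genes (log2 of the sum) lay between 12.15 and 14.55 without (14.13 to 14.55 in controls 1 and 2) and between 14.71 and 15.07 with TGF-β1, and none of the 16 was below the lower quartile of every array. In TGF-β1 3, where Erbb2 and Erbb3 were at their lowest of the treated group, the epithelial genes were split: 7 of the 16 (Cdh1, Trp63, Sox9, Sox10, Ehf, Elf5 and Cldn4) were also at their lowest of the treated arrays there, and 8 (Epcam, Cldn3 and 6 keratins) at their highest. The median of the list, 10.33 in that array, does not show this split. Of 13 mesenchyme genes, 4 fell with array weights and 0 rose (30.8%), and 2 fell in the 4-array fit (15.4%). Of 9 Schwann and glial genes, a list that includes Erbb3, 1 rose and 0 fell (11.1%), and 0 passed in the 4-array fit. The summed level of the mesenchyme list lay between 11.32 and 14.28 without (13.94 to 14.28 in controls 1 and 2, the low end being control 3) and between 13.41 and 14.02 with TGF-β1, and that of the glial list between 10.56 and 10.69 without and between 10.49 and 10.65 with it. Of the other marker lists, 10 of 11 acinar genes rose and 0 fell with array weights (10 and 0 in the 4-array fit, 90.9% in each). Of 13 ganglion neuron genes 4 rose and 1 fell with array weights (38.5%), and 1 (Ret) rose and 0 fell in the 4-array fit (7.69%). Of 8 endothelial genes 0 rose and 1 fell, and of 8 cartilage genes 1 rose and 0 fell (12.5% each). Of 7 blood and immune, 10 skeletal muscle and 12 genes that every cell uses, 0 passed. In lists this short, 1 gene called is near the share of all genes. The part of these cell types in the receptor values was not tested.

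**Figure D3:**
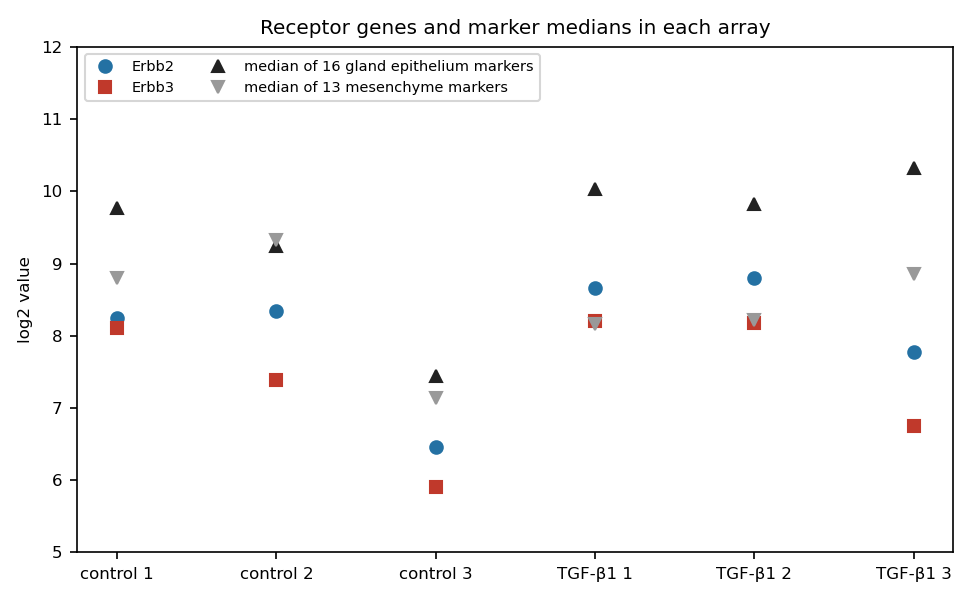
Log2 values (vertical axis) of Erbb2 and Erbb3 and the medians of 16 gland epithelium and 13 mesenchyme markers in each array (horizontal axis). In TGF-β1 3 Erbb2 is at 7.78 and Erbb3 at 6.76, the lowest of the treated arrays, and the epithelial median at 10.33 stands for 7 genes that are also lowest there and 8 that are highest.

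Of the other family genes, 0 of 5 passed in any of these fits. Epgn (epigen, an Egfr ligand) was at 5.99, 6.07 and 7.32 in the controls and between 5.69 and 6.16 with TGF-β1. Its unweighted difference was -0.48 ± 0.44. Nrg2, at 7.49, 7.10 and 8.70 in the controls and 7.46 to 7.81 in the treated arrays, had the smallest adjusted p of the family with array weights (0.0921; difference 0.51 ± 0.16), and its unweighted difference was -0.14 ± 0.46. Nrg4, a ligand of Erbb4, differed by 0.40 ± 0.16 with array weights (adjusted p = 0.181), and by -0.26 ± 0.50 unweighted. Nrg3 was below the lower quartile in 5 arrays, and Erbb4, the remaining receptor of the family, in all 6, with values of 4.21 to 5.11 over both groups. The unweighted sign was opposite to the weighted one for Epgn, Nrg2, Nrg3 and Nrg4. Control 3 was the highest array for all 4, as it was for 51.9% of all genes.

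In the order of protein-coding genes on chromosome 5 of the mouse reference, Epgn, Ereg, Areg and Btc follow each other directly. Of their 3 measured members none passed. The differences were -0.48 ± 0.44 for Epgn, -0.28 ± 0.28 for Ereg and -0.10 ± 0.47 for Btc unweighted, and 0.05 ± 0.14, -0.25 ± 0.13 and 0.38 ± 0.17 with array weights. Of the family's promoters in the RefSeq table (GRCm38.p6; 250 bases before to 50 after a gene's start), 6 belonged to 5 of the 9 measured genes, Egf, Tgfa, Btc, Egfr and Erbb2. Since the glands were exposed to TGF-β1, they were searched on both strands for the core of the Smad binding box, CAGAC, which was in 4 of the 6 (Egf with both its starts, Tgfa and Egfr) beside 49.6% of all 32851 promoters. The AP-1 motif TGANTCA (7.81% of those promoters), the EGR motif GCGGGGGCG (2.91%) and the CRE motif TGACGTCA (1.79%) were in 0 of the 6. None of these motifs contains another. The ligand promoters with the Smad box before the start are shown around it, 60 bases each from 5′ to 3′ along the gene, the box in capitals on its reverse strand (GTCTG), which begins 77 bases before the start of Egf (chr3:129755367-129755426, minus strand) and 90 bases before that of Tgfa (chr6:86195105-86195164, plus strand).
Egf: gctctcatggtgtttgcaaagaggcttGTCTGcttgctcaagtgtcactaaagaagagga
Tgfa: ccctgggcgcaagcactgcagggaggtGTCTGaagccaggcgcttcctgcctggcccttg
Neither Egf nor Tgfa passed in any fit, and a match to such a short motif is a description of the letters alone.

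Downstream of the receptors, Grb7, an adaptor protein that binds ErbB receptors, had the smallest adjusted p with array weights of the 11 pathway genes that are named by the rule. Grb7 was at 8.64, 8.23 and 8.73 in the controls and at 10.05, 9.93 and 9.66 in the TGF-β1 arrays, and control 3 lay with the other controls. The groups did not overlap. The unweighted difference was 1.34 ± 0.32 (adjusted p = 0.776 in limma's fit), and Grb7 rose by 1.64 ± 0.16 with array weights (adjusted p = 2.31e-04) and by 1.55 ± 0.18 in the 4-array fit (adjusted p = 0.0165). Grb7 lies close to Erbb2 on chromosome 11, with Mien1 the only protein-coding gene between them in the reference. Mien1, looked up after the values of Grb7 were seen, was at 9.83, 9.89 and 6.36 in the controls. It was at 10.19, 10.20 and 11.08 in the TGF-β1 arrays. The groups of Grb7 and of Mien1 did not overlap, which held for 11.6% of all genes. Those of Erbb2 overlapped through TGF-β1 3 alone (7.78), with TGF-β1 1 and 2 above all controls.

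The 29 measured adaptors and kinases downstream of the receptors held 27 that did not pass with array weights, 1 that rose (Grb7) and 1 that fell, a share near that of all genes (6.90% beside 6.88%). The gene that fell was Stat3, a transcription factor activated by cytokine receptors and by Egfr. It was at 11.29, 11.18 and 7.44 in the controls and at 10.22, 10.25 and 10.73 in the TGF-β1 arrays. Stat3 fell by 0.93 ± 0.18 with array weights (adjusted p = 0.0104) and its difference was -0.997 ± 0.14 in the 4-array fit (adjusted p = 0.0244), while its unweighted difference was 0.43 ± 0.99, with control 3 far below all other arrays. The list's median difference was 0.05 with array weights, beside 0.01 over all genes. The acinar and gland epithelium markers that passed rose as Grb7 did. Of the 9 gland epithelium markers that did not pass, 5 had a negative weighted difference. The summed level of the 11 acinar genes lay between 11.01 and 11.82 without and between 14.47 and 14.80 with TGF-β1. The part of these markers in the rise of Grb7 was not tested.

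Ligand shedding and traffic was represented by 13 measured genes, of which the array-weighted fit passed 1 as higher and 2 as lower and left 10 without a call (23.1% called, beside 6.88% of all genes). In the 4-array fit 1 of the 13 passed (7.69%, beside 2.59%). Cd9, a tetraspanin that associates with the membrane form of Hbegf, was at 10.96, 10.89 and 9.13 in the controls and at 11.57, 12.04 and 11.79 in the TGF-β1 arrays, with no overlap. It rose by 0.84 ± 0.17 with array weights (adjusted p = 0.0130) and missed the threshold in the 4-array fit (adjusted p = 0.0620). Adam12, a metalloprotease reported to shed Hbegf, was at 9.10, 9.66 and 7.68 in the controls and at 8.24, 7.84 and 7.94 in the TGF-β1 arrays, so that control 3 lay below the treated arrays and the other controls above them. It fell by 1.41 ± 0.19 with array weights (adjusted p = 0.0018) and by 1.34 ± 0.23 in the 4-array fit (adjusted p = 0.0367). Adam19, another metalloprotease, which can cleave neuregulin, fell by 0.83 ± 0.17 with array weights (adjusted p = 0.0140; adjusted p = 0.0575 in the 4-array fit). The mesenchyme markers that passed fell as well, and their part in the Adam12 and Adam19 values was not tested.

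The main sheddases did not pass. Adam17, which releases Tgfa and several other ligands, was at 8.29, 8.56 and 6.69 in the controls and at 7.96 to 8.24 in the treated arrays. Its difference was 0.23 ± 0.52 unweighted and -0.38 ± 0.15 with array weights (adjusted p = 0.191). Adam10, which releases Egf and Btc, differed by 0.70 ± 0.68 and by 0.01 ± 0.16 with array weights, and without control 3 its 5 values lay between 9.30 and 9.73. Rhbdf1 and Rhbdf2 encode the iRhom proteins that bring Adam17 to the cell surface. They differed by 0.89 ± 0.54 and 0.06 ± 0.32 unweighted and by 0.31 ± 0.15 and 0.30 ± 0.14 with array weights, and neither passed; quantile normalization turned the sign of Rhbdf2 (-0.28).

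**Figure D4:**
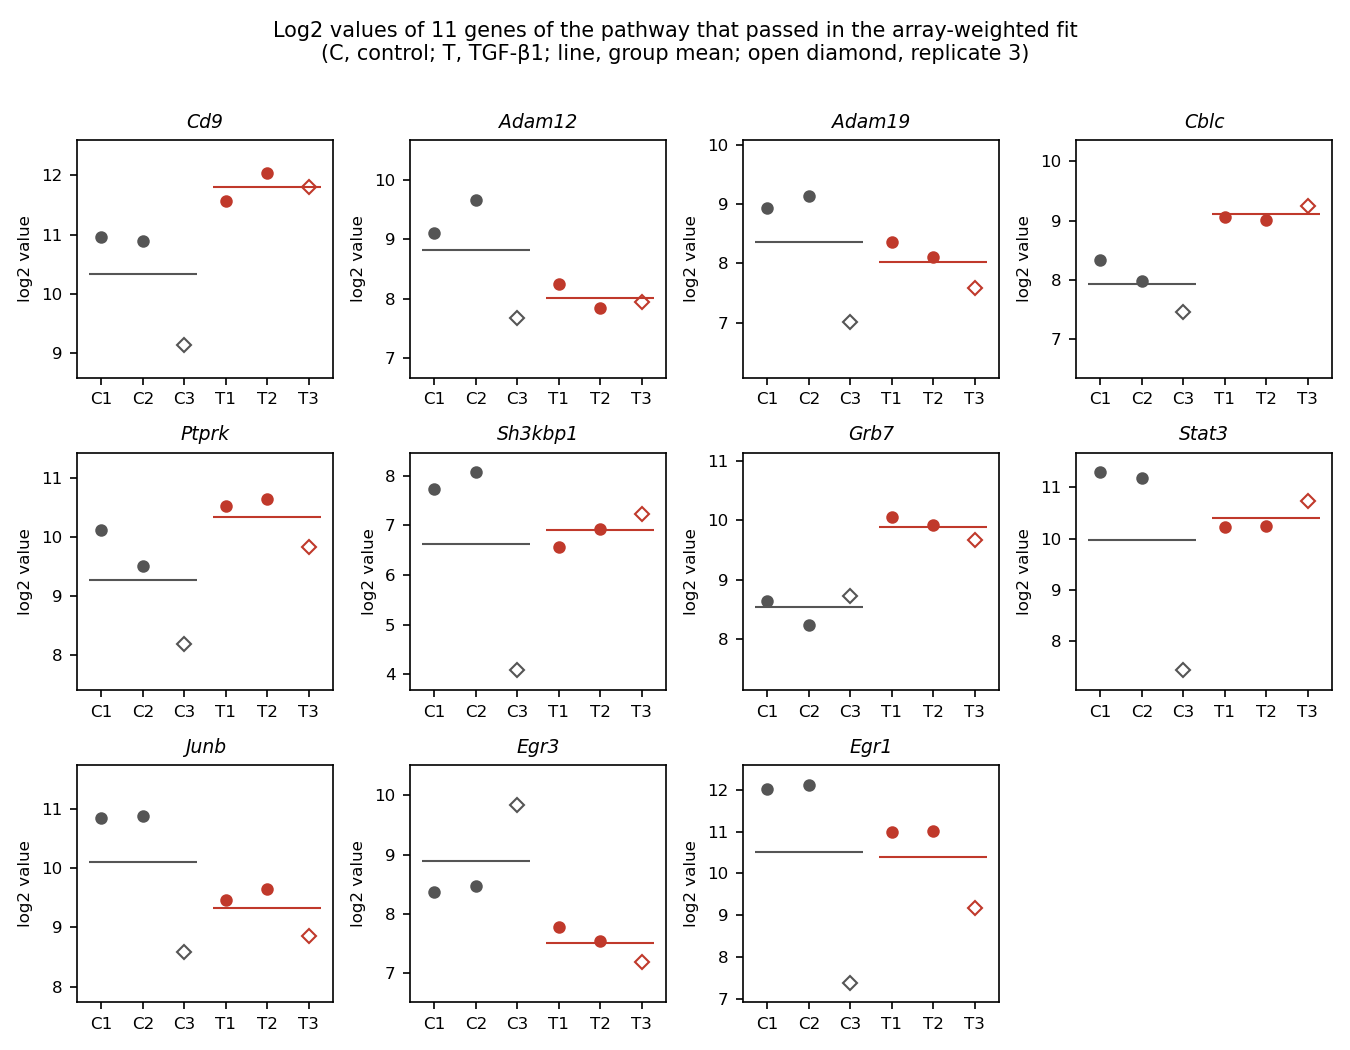
Log2 values (vertical axis) of 11 genes of shedding, receptor turnover, downstream signalling and induced transcripts in each array (horizontal axis; C, control, grey; T, TGF-β1, red; lines, group means; open diamonds, replicate 3), chosen because they passed in the array-weighted fit. Cd9, Cblc, Grb7 and Egr3 (its brightest probe set) have groups that do not overlap, beside 11.6% of all genes. The choice by the array-weighted fit favours such genes. Control 3 is the lowest array for all but Grb7 and Egr3, as it is for 32.4% of all genes.

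Receptor inhibition and turnover was represented by 21 genes, of which the array-weighted fit passed 2 as higher and 1 as lower and left 18 without a call (14.3% called, beside 6.88% of all genes). In the 4-array fit 2 of the 21 passed (9.52%, beside 2.59%). Cblc, an epithelial ubiquitin ligase of the Cbl family that acts on activated ErbB receptors, was at 8.33, 7.99 and 7.46 in the controls and at 9.06, 9.02 and 9.26 in the TGF-β1 arrays. Its groups did not overlap, and it rose by 0.98 ± 0.15 with array weights (adjusted p = 0.0029) and by 0.88 ± 0.17 in the 4-array fit (adjusted p = 0.0468). Ptprk, a receptor phosphatase that acts on Egfr, rose by 0.87 ± 0.19 with array weights (adjusted p = 0.0192; adjusted p = 0.121 in the 4-array fit). Sh3kbp1, a Cbl partner in receptor endocytosis, was at 7.75, 8.07 and 4.08 in the controls and at 6.56, 6.93 and 7.23 in the treated arrays. It fell by 1.24 ± 0.21 with array weights (adjusted p = 0.0046), and its unweighted difference was 0.28 ± 1.01. Errfi1, the feedback inhibitor of ErbB kinases, was at 12.15, 11.45 and 6.41 in the controls and at 11.27, 11.06 and 10.02 in the TGF-β1 arrays, with a weighted difference of -0.49 ± 0.27 (adjusted p = 0.358) and an unweighted one of 0.78 ± 1.41. Lrig1, which promotes receptor breakdown, differed by -0.25 ± 0.18 with array weights (adjusted p = 0.503) and by 0.18 ± 0.60 without.

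Transcripts that receptor and MAP kinase signalling is known to induce fell where they passed, in fits that weighted down or left out control 3. For Junb and Egr1 among them, control 3 lay below all 3 treated arrays, so that the fall is against controls 1 and 2. Of the 31 measured, 25 did not pass with array weights and the 6 that did all fell, a share of 19.4% beside 3.44% of all genes that fell; the list median was -0.49 beside 0.01. In the 4-array fit 5 passed as lower, 4 of them among the 6 (16.1%, beside 2.59% of all genes in either direction). In the unweighted fit 0 passed. This list holds Ereg and Hbegf themselves, which did not pass.

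Junb, an AP-1 subunit, was at 10.84, 10.88 and 8.59 in the controls and at 9.46, 9.64 and 8.85 in the TGF-β1 arrays. It fell by 1.37 ± 0.17 with array weights (adjusted p = 9.41e-04) and by 1.31 ± 0.15 in the 4-array fit (adjusted p = 0.0159). Its unweighted difference was -0.78 ± 0.66. Egr1, an immediate early transcription factor, was at 12.03, 12.12 and 7.38 in the controls and at 10.996, 11.02 and 9.17 in the TGF-β1 arrays. It fell by 1.17 ± 0.27 with array weights (adjusted p = 0.0222) and by 1.07 ± 0.14 in the 4-array fit (adjusted p = 0.0224), with an unweighted difference of -0.12 ± 1.29. Egr3, a related factor, was at 8.37, 8.48 and 9.84 in the controls and at 7.79, 7.55 and 7.19 in the TGF-β1 arrays, with no overlap. It fell by 0.78 ± 0.16 with array weights (adjusted p = 0.0116; adjusted p = 0.0571 in the 4-array fit). Egr3 had 3 probe sets, whose unweighted differences were -1.39, -0.76 and -0.70, and -0.92, -0.46 and -0.75 against controls 1 and 2 alone. The first stood for the gene.

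The genes whose values ran most like those of a family member over the 6 arrays were found by the root mean square distance between log2 values centred on each gene's mean. For Hbegf they were Cpa6 (0.0637), Gas2 (0.0792) and Gpr37l1 (0.0825), and for Erbb2 they were Rbl1 (0.0907), Acaca (0.0975) and Swap70 (0.0999), in log2 units. All of them share the position of control 3. It was the highest of the 6 arrays for Hbegf and its 3 neighbours and the lowest for Erbb2 and its 3. Cpa6 lay below the lower quartile of its own array in all 6 arrays.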

How the data were processed

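Gene expression in cultured embryonic mouse salivary glands was measured on 6 Affymetrix arrays, 3 per group as the titles name them. Each deposited column holds 1 log2 value per probe set, made by the authors with RMA (no version named) per the submitters' processing notes. Arrays carry no read depth, so precision is limited by how many there are. Of 22206 probe sets, 19572 had 1 gene symbol in the platform annotation, 2634 had none and 0 had more than 1, and all 19572 Entrez identifiers matched the reference table. A gene with more than 1 probe set was represented by its brightest (mean over the 6 arrays), which gave 19505 genes.

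The test was limma's (version 3.58.1, R 4.3.3; lmFit, eBayes, two-sided) with Benjamini-Hochberg adjustment over all genes and a threshold of 0.05. Differences are TGF-β1 minus control. "Rose" and "fell" are used for genes past the threshold with array weights (arrayWeights) or, where named, in the 4-array fit (controls 1 and 2, TGF-β1 1 and 2), because no gene passed unweighted. The weights' estimation stopped before its tolerance was reached, and p-values from it are too small. The genes of the family, the gene lists, the marker lists and the tests were chosen with earlier results of these data known. Named were all family genes, 6 fixed genes, Actb and Gapdh for the check of arrays, the 3 nearest profiles of the ligand and of the receptor of smallest unweighted p, and up to 3 genes per pathway list and direction of smallest p with array weights. The alternatives were array weights, quantile normalization, median centring, a filter on the lowest 33.3% of genes, the replicate number as a block, and arrays left out.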

Additional observations from a re-analysis of the deposited data

How the results depend on the processing

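The number of genes called depended on the arrays and their weights. Limma's fit called 0 of 19505 genes with all 6 arrays unweighted, 1342 when arrays were weighted, 544 when control 3 was dropped and the rest weighted, and 505 in the 4-array fit. It called 0 with quantile normalization, median centring, the filter on low values, the replicate number as a block (0 genes, 322 at an unadjusted p under 0.05) and with any 1 array left out. Deviations of same-numbered arrays from their group means correlated at r = -0.066, -0.008 and -0.050. Control 3 lay so far from controls 1 and 2 that it set the deviations of all controls. These correlations therefore cannot show whether the arrays were paired. The replicate numbers were not taken as pairs, and the block changed no call. Of the 9 family genes, 0 passed in any of the 13 alternatives, and the filter on low values left Egf untested.

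Signs of differences turned between the unweighted fit, where none passed, and fits that weighted down or left out control 3. For Egf and Rhbdf2 the sign also turned with quantile normalization. For Adam19, Egr1, Rhbdf2, Nrg3 and Lrig1 it also turned when a single array other than control 3 was left out. Of those listed, Sh3kbp1 and Stat3 passed in the 3 fits named for them. The cause was not tested. Egf turned to 0.067 with array weights, 0.15 with quantile normalization, 0.092 when control 3 was dropped and the rest weighted, and 0.099 in the 4-array fit. In the same order but for quantile normalization, Tgfa turned to 0.19, 0.20 and 0.20, Btc to 0.38, 0.27 and 0.25, Epgn to 0.050, 0.078 and 0.088, Nrg2 to 0.51, 0.43 and 0.41, Nrg3 to 0.41, 0.42 and 0.33, Nrg4 to 0.40, 0.44 and 0.44, Sh3kbp1 to -1.24, -1.19 and -1.16, Stat3 to -0.93, -0.98 and -0.997, Adam17 to -0.38, -0.33 and -0.29, Errfi1 to -0.49, -0.67 and -0.64, and Lrig1 to -0.25, -0.28 and -0.18. Adam10 turned to -0.063 and -0.022 in the last 2 of these fits and Rhbdf2 to -0.28 with quantile normalization. Unweighted, Adam19 turned to 0.049 without control 2, and Rhbdf2 to -0.031 without control 1 and -0.014 without control 2. Egr1 turned to 0.64 without control 1, 0.69 without control 2 and 0.50 without TGF-β1 3, and Nrg3 to 0.0062 without TGF-β1 2. Adam19, Rhbdf2 and Egr1 kept their sign without control 3 (-1.01, 0.22 and -1.68).

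With each array left out in turn, Egf lay between -0.23 and 0.12, Tgfa between -1.02 and 0.10, Btc between -0.45 and 0.38, Erbb3 between -0.036 and 1.07, Adam19 between -1.01 and 0.049, Sh3kbp1 between -1.002 and 0.99, Stat3 between -0.83 and 1.09, Egr1 between -1.68 and 0.69, Nrg2 between -0.47 and 0.33, Nrg3 between -0.54 and 0.53, Nrg4 between -0.56 and 0.26, Adam10 between -0.12 and 1.17, Adam17 between -0.35 and 0.59, Rhbdf2 between -0.031 and 0.22, Errfi1 between -1.02 and 1.85 and Lrig1 between -0.46 and 0.52. Hbegf, Ereg, Nrg1, Egfr, Erbb2 and the pathway genes Grb7, Cblc, Cd9, Ptprk, Adam12, Junb and Egr3 kept their sign in every such fit.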
